A study of Mus musculus with 24 samples.

Results

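Transcripts that are commonly used as internal references in real-time RT-PCR were followed in mouse thymocytes after irradiation. The 10 genes were Hprt, Ppia, Gapdh, Actb, B2m, Tbp, Gusb, Pgk1, Ywhaz and Sdha, out of 21154 genes that could be named on the array. Through the accession of the array design they were carried by 19 of the 55681 non-control probes: 7 for Gapdh, 3 for Ywhaz, 2 for Tbp and 1 for each of the other genes. Hprt and Ppia were picked because their values on these same arrays were lower after irradiation, so their values against control are described without a test. The other 8 genes were listed for their common use. Where a gene had several probes, the brightest in Cy5 (by its mean signal) stands for it, and the others are given beside it.

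The thymocytes came from C57BL/6J mice of both sexes, 4 to 5 weeks old, with 3 mice in each of 8 groups. Control mice were not irradiated, high-dose mice received 1.75 Gy of γ-rays, low-dose mice received 0.075 Gy of X-rays, and RAR mice received 0.075 Gy of X-rays followed 6 h later by 1.75 Gy of γ-rays (the adaptive regimen). The time between the last exposure and cell collection is not given in the sources used here. The thymus was dispersed through a mesh and no sort is named, so the material can hold cells other than thymocytes. Each of 24 Agilent 2-colour arrays carried the RNA of 1 mouse in Cy5 and a common mouse reference RNA in Cy3. A level below is the log2 Cy5/Cy3 ratio, the level of a transcript relative to its own level in the reference RNA. It cannot be compared between genes, only between samples of the same gene.

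The thymocyte label was borne out by its markers: all 10 markers of double-positive thymocytes were well above background in Cy5 on 24 of 24 arrays, and in controls their log2 ratio ran from 2.90 for Cd4 to 9.90 for Rag2. Between 34.7% and 71.8% of the spots of an array were well above background in Cy5, with both extremes among the female RAR arrays, and the median log2 ratio of an array lay between −0.137 and 0.087. The arrays lay on 3 slides of 8. The third slide carried every female control, and the first every female high-dose array. With 3 arrays in a group, it is their number that limits how precise a difference can be. The labels call the samples independent.

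Reference genes are chosen because cells of many kinds are thought to keep them at a steady level, so that the amount of a target transcript can be divided by theirs. They serve very different tasks. HPRT recycles purine bases into nucleotides, PPIA (cyclophilin A) helps proteins fold and binds cyclosporin, GAPDH and PGK1 are enzymes of glycolysis, ACTB is the cytoplasmic β-actin and SDHA a subunit of succinate dehydrogenase. GUSB is a lysosomal β-glucuronidase, YWHAZ a 14-3-3 adaptor protein and TBP the TATA-binding protein of general transcription. B2M is the light chain of MHC class I molecules, which immature double-positive thymocytes carry at a low level and mature T cells at a high one. In the RT-PCR of the study the internal control was the geometric mean of HPRT1 and PPIA, and the Western blots were set against β-actin; neither was analysed here. The study's HPRT1 primers are shown because they define the reference assay, in lower case from 5′ to 3′.
HPRT1 forward: tcctcctcagaccgctttt
HPRT1 reverse: cctggttcatcatcgctaatc

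Hprt was lower on every irradiated array than on every control array. In females its log2 ratio was 0.58, 0.70 and 0.78 in controls, −0.31, −0.18 and −0.098 at the high dose, −0.13, −0.056 and −0.051 at the low dose, and −0.22, −0.21 and −0.097 in RAR. In males it was 0.50, 0.54 and 0.65 in controls, −0.36, −0.25 and −0.19 at the high dose, −0.27, −0.17 and −0.13 at the low dose, and −0.38, −0.35 and −0.29 in RAR. The values of 6 control arrays and of 18 irradiated arrays formed separate ranges, while the irradiated groups overlapped with their neighbours in the order of means. That order ran from female low dose (−0.080) through female RAR (−0.18), male low dose (−0.19), female high dose (−0.20) and male high dose (−0.26) to male RAR (−0.34). Against the control mean of the same sex, Hprt differed by −0.88 and −0.83 (females, males) at the high dose, −0.77 and −0.75 at the low dose, and −0.86 and −0.90 in RAR, between 1.69-fold and 1.87-fold lower. The probe of Hprt was printed 10 times on each array, and the SD between these spots was 0.045 at the median, so spot noise was small beside the SD between mice of a group (0.078).

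Ppia followed Hprt closely. In females its log2 ratio was 0.96, 1.02 and 1.09 in controls, 0.26, 0.27 and 0.48 at the high dose, 0.33, 0.41 and 0.50 at the low dose, and 0.14, 0.16 and 0.23 in RAR. In males it was 0.74, 0.82 and 1.01 in controls, 0.13, 0.23 and 0.31 at the high dose, 0.21, 0.29 and 0.37 at the low dose, and 0.015, 0.032 and 0.051 in RAR. Again control and irradiated arrays did not overlap, and RAR had the lowest mean in each sex. Against control, Ppia differed by −0.69 and −0.63 (females, males) at the high dose, −0.61 and −0.57 at the low dose, and −0.85 and −0.82 in RAR. Over the 24 arrays Hprt and Ppia had a Pearson r of 0.962, a description of points that share the split between control and irradiated mice. The difference between the 2 log2 ratios varied little (SD 0.109 over 24 arrays).

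The mean of the log2 ratios of Hprt and Ppia, the array counterpart of the RT-PCR internal control, stood at 0.856 ± 0.0736 (SD, n = 3) in controls that were female and at 0.71 ± 0.109 (SD, n = 3) in those that were male. It was 0.0693 ± 0.112 and −0.0211 ± 0.049 (SD, n = 3 each) at the high dose, 0.167 ± 0.0485 and 0.0494 ± 0.0663 at the low dose, and 0.0020 ± 0.0577 and −0.153 ± 0.0309 in RAR, for females and males. The lowest control array stood at 0.622 and the highest irradiated array at 0.223. In RAR the mean was 1.81-fold lower than in control in females and 1.82-fold lower in males. At the high dose it was 1.72-fold and 1.66-fold lower, and at the low dose 1.61-fold and 1.58-fold lower. Within the slides that held both groups, the mean differed from control by −0.83 in male high dose, −0.63 in female low dose, −0.86 and −0.56 in male low dose and −1.01 in male RAR. Female high-dose and RAR arrays shared no slide with female controls. With the slide as a block, Hprt differed there by −0.87 and −0.85, and Ppia by −0.72 and −0.86.

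**Figure D1:**
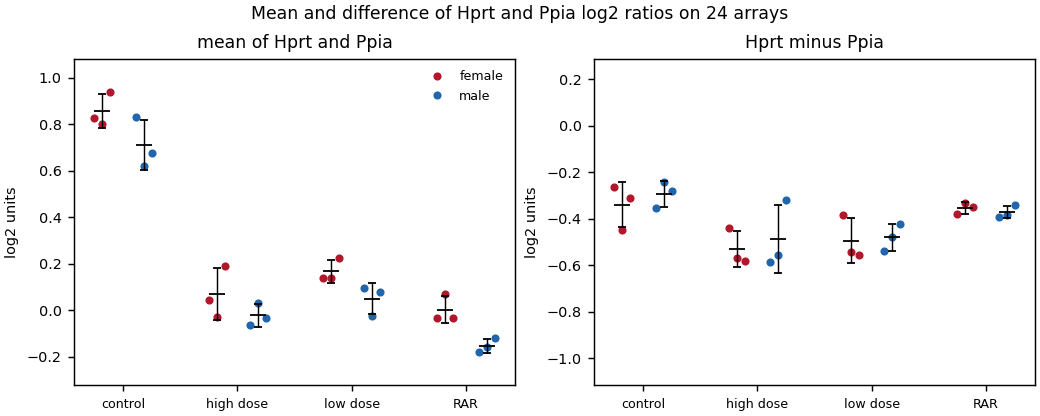
Mean (left) and difference (right) of the log2 Cy5/Cy3 ratios of Hprt and Ppia on each of 24 arrays, by treatment and sex; points are arrays (3 per group), dashes are group means and bars are the SD. The mean was at 0.622 or above on control arrays and at 0.223 or below on irradiated ones, while the difference stayed between −0.585 and −0.243.

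The 250 bases before the RefSeq start of Hprt and Ppia are shown because these genes shared one course across the arrays, and 8 of the 10 genes had an entry. The letters GGGCGG, the core of a GC box to which SP1 binds, and TATAAA, the core of a TATA box, were searched on both strands and are in capitals; the marked matches do not overlap one another. GGGCGG stood in 32.7% of 32851 windows of the same length and in those of Hprt, Ppia, Tbp and Pgk1. TATAAA stood in 12.4% of the windows and in those of Ppia and B2m. Hprt lies on chromosome X (chrX:52987828-52988077, plus strand) and Ppia on chromosome 11 (chr11:6415617-6415866, plus strand), both in GRCm38.p6. The window of Hprt held 2 GC boxes and that of Ppia held 4 GC boxes and 1 TATA box.
Hprt: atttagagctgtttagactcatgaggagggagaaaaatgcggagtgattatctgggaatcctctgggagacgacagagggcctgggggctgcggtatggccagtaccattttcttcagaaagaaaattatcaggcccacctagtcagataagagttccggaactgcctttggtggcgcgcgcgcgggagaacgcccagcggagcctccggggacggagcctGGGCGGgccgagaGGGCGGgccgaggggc
Ppia: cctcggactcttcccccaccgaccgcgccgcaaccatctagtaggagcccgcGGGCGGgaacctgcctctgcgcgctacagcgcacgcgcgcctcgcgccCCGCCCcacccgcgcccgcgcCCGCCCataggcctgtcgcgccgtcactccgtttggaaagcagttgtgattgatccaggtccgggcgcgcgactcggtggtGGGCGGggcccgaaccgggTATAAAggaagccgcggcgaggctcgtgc

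B2m, the light chain of MHC class I, went the other way. In females its log2 ratio was −0.094, −0.084 and 0.0060 in controls, 0.24, 0.30 and 0.42 at the high dose, 0.38, 0.43 and 0.45 at the low dose, and 1.08, 1.20 and 1.48 in RAR. In males it was −0.32, −0.26 and 0.13 in controls, 0.31, 0.43 and 0.47 at the high dose, 0.051, 0.052 and 0.39 at the low dose, and 1.19, 1.26 and 1.47 in RAR. All 6 RAR arrays lay above every other array, and only male low dose overlapped with its controls. In RAR, B2m rose 2.48-fold over control in females (log2 change 1.31, 95% interval 1.03 to 1.59, limma adjusted p = 7.5e-07) and 2.74-fold in males (1.46, 1.18 to 1.73, adjusted p = 1.53e-07). After a single exposure its change was 0.38 and 0.55 with the high dose (females, males, adjusted p = 0.0704 and 0.00666), while with the low dose it was 0.48 and 0.31 (adjusted p = 0.0193 and 0.151), all less than 1.5-fold. With the slide as a block the high-dose changes were 0.67 and 0.69 (adjusted p = 0.0931 and 0.00748), both above 1.5-fold, so B2m was called there in males. The blocked low-dose changes were 0.56 and 0.31 (adjusted p = 0.0237 and 0.138), below 1.5-fold. In a bulk sample a change in the share of cells with a transcript and a change of its level per cell cannot be told apart.

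Other genes of the MHC class I pathway were counted on a list of 12 genes without B2m, chosen with earlier results of these data known. In RAR against control 5 of 12 were higher and 1 lower in females (median change 0.47), and 8 were higher and 0 lower in males (median 0.69), beside 9.61% and 11.2% of all probes called higher, 10.8% and 13.3% called lower, and medians of −0.040 and −0.015 over all probes. Nlrc5, a transactivator of MHC class I genes, rose by 1.78 and 1.97 (females, males), the heavy chain H2-K1 by 1.39 and 1.72, and H2-D1 by 1.30 and 1.53. Markers of other cell types moved as well. Of 12 myeloid markers 8 were higher in female RAR and 10 in male RAR than in control and 0 were lower; their mean log2 ratio ran from −0.315 to 0.423 in controls, 0.526 to 0.999 at the high dose, 0.347 to 0.657 at the low dose and 1.44 to 2.30 in RAR. None of the 12 was at background throughout: 11 were well above it on all 24 arrays and Fcgr1 on 21. Of 7 mature T cell markers 5 and 6 were higher in RAR (females, males) and 0 lower, with a mean log2 ratio of 3.03 to 3.38 in controls and 3.95 to 4.29 in RAR. The part of either in the value of B2m was not tested. Of the double-positive markers 2 were higher and 3 lower in females, and 3 higher and 1 lower in males. B cell markers (1 of 6 higher and 3 lower in females, 1 and 4 in males), erythroid (1 and 1 of 6, then 1 and 0), stromal and endothelial (2 and 1 of 8 in each sex) and thymic epithelial markers (2 and 1 of 7, then 2 and 0) moved both ways or in few genes. Of 15 TRP53 target genes 11 and 12 were higher in RAR and 0 lower.

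The window before the start of B2m is shown because B2m was the gene of the list that rose (chr2:122147437-122147686, plus strand, GRCm38.p6). Capitals mark TATAAA and the letters of an interferon-stimulated response element, which are GAAA, any 2 bases and GAAA again. Both strands were searched, each pattern was found 1 time (TATAAA on the minus strand), and they do not overlap. The response element stood in 2.98% of the 32851 windows and in no other of the 8 windows of these genes.
B2m: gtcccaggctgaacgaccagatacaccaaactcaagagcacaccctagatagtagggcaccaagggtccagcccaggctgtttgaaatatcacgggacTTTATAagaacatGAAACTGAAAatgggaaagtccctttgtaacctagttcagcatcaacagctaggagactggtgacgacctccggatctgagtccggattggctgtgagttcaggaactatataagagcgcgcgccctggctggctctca

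Tbp, which places the general transcription machinery on promoters, was the other gene called. In females its log2 ratio was 0.75, 0.80 and 0.81 in controls, 0.43, 0.46 and 0.49 at the high dose, 0.28, 0.41 and 0.46 at the low dose, and 0.033, 0.12 and 0.23 in RAR. In males it was 0.61, 0.65 and 0.74 in controls, 0.28, 0.34 and 0.47 at the high dose, 0.26, 0.50 and 0.54 at the low dose, and −0.24, 0.0089 and 0.039 in RAR. Control arrays lay above all irradiated arrays of their sex, and RAR arrays below all others of their sex. In RAR, Tbp fell 1.58-fold in females (log2 change −0.66, 95% interval −0.87 to −0.45, limma adjusted p = 5.4e-05) and 1.66-fold in males (−0.73, −0.94 to −0.52, adjusted p = 1.33e-05). With the slide as a block the changes were −0.46 and −0.58, with adjusted p of 0.0299 and 0.00218, below 1.5-fold. After normexp background correction and loess they were −0.50 and −0.50, also below 1.5-fold. The dimmer Tbp probe, well above background in Cy5 on 20 of 24 arrays, changed by −0.96 and −1.45 (adjusted p = 0.00204 and 3.18e-05), in the same direction.

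Of the 8 genes listed for common use, 2 were called in RAR against control in each sex, B2m higher and Tbp lower, beside 20.4% of all probes called in females and 24.4% in males. limma called 0 of 8 with the high dose in each sex, beside 7.84% and 10.5% of all probes (females, males), and at the low dose 0 of 8 beside 8.74% and 6.63%. These counts of 0 hold for the brightest probe of each gene in the fit without a slide block. Among the other probes, the sixth Gapdh probe was called in female high dose (−0.64), the sixth and the seventh with the low dose in both sexes (−0.61 to −0.62), and the dimmer Tbp probe in male high dose (−0.92) and with the low dose in both sexes (−0.70 and −0.74). The counts rest on the 1.5-fold minimum in part as well: at an unadjusted p under 0.05 there were 6 and 4 genes for the high dose (females, males) against 5 and 5 for the low one, and an adjusted p under 0.05 was met by 3 and 3, and by 3 and 1. The genes below the minimum with an adjusted p under 0.05 at a single dose included Pgk1 in all 4 of these comparisons, with changes at the high dose of −0.29 in females and −0.25 in males, while at the low dose they were −0.36 and −0.35. With the slide as a block in limma, Pgk1 changed by −0.32 and −0.26 at the high dose (adjusted p = 0.212 and 0.0949). At the low dose the blocked changes were −0.37 and −0.35 (adjusted p = 0.0159 and 0.00832).

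**Figure D2:**
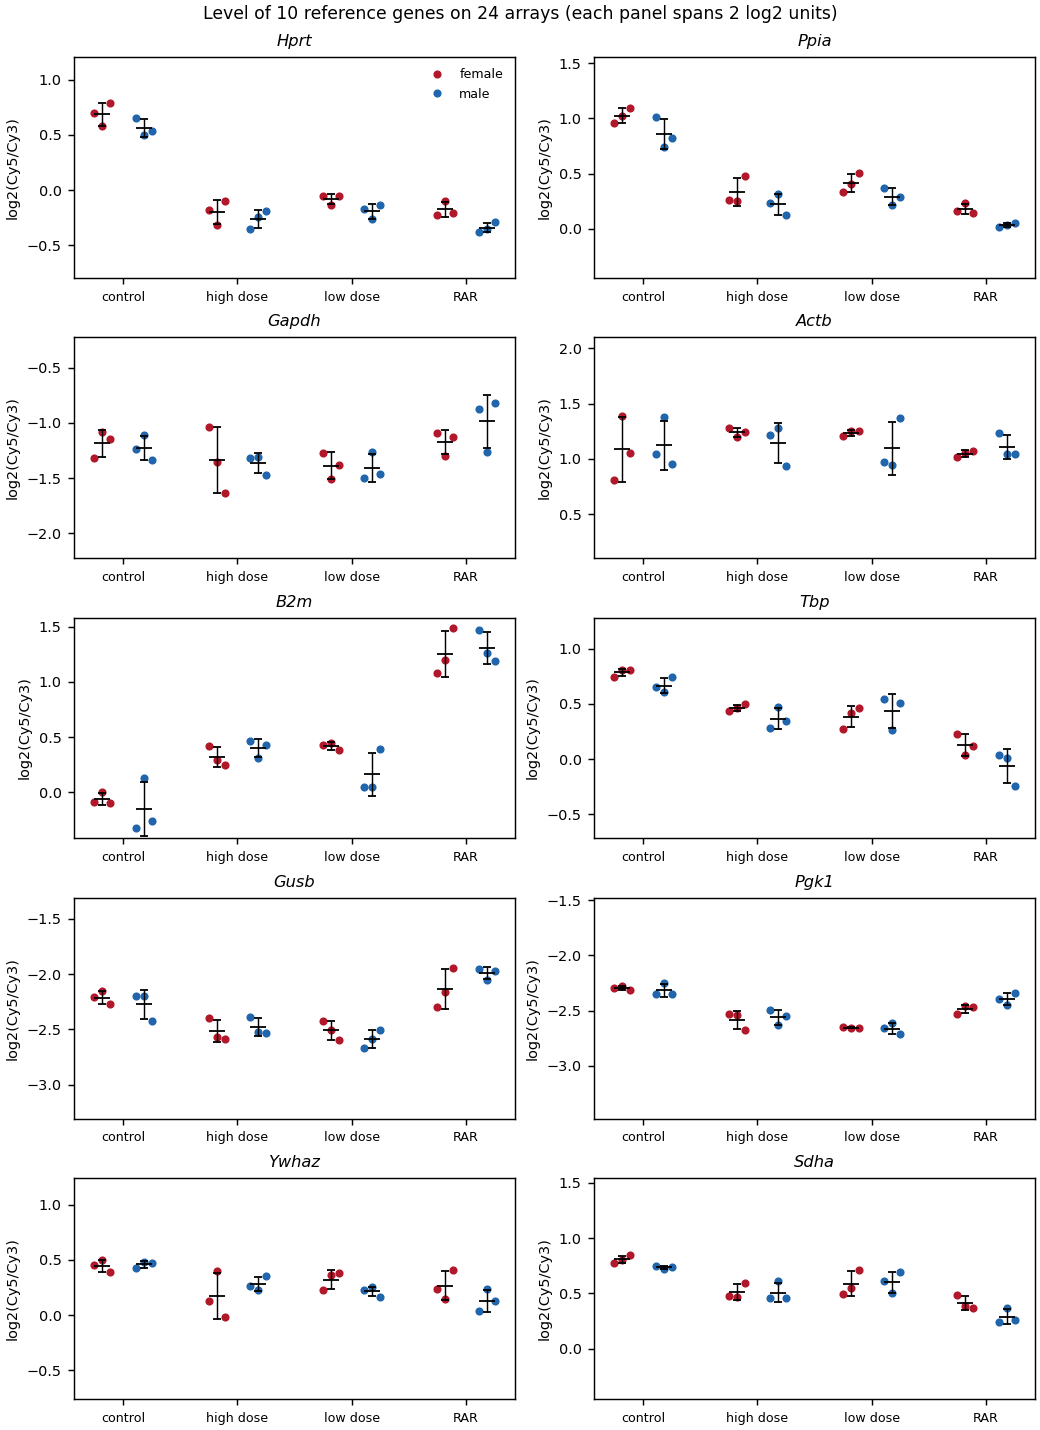
Log2 Cy5/Cy3 ratio of the 10 genes on each of 24 arrays by treatment and sex, 1 panel per gene with the same span on each vertical axis; points are arrays (3 per group), dashes are group means and bars are the SD. On irradiated arrays Hprt lay between −0.38 and −0.051 and Ppia between 0.015 and 0.50, below their controls, and B2m reached 1.08 to 1.48 in RAR, while the female controls of Actb spanned the values of all other arrays.

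**Figure D3:**
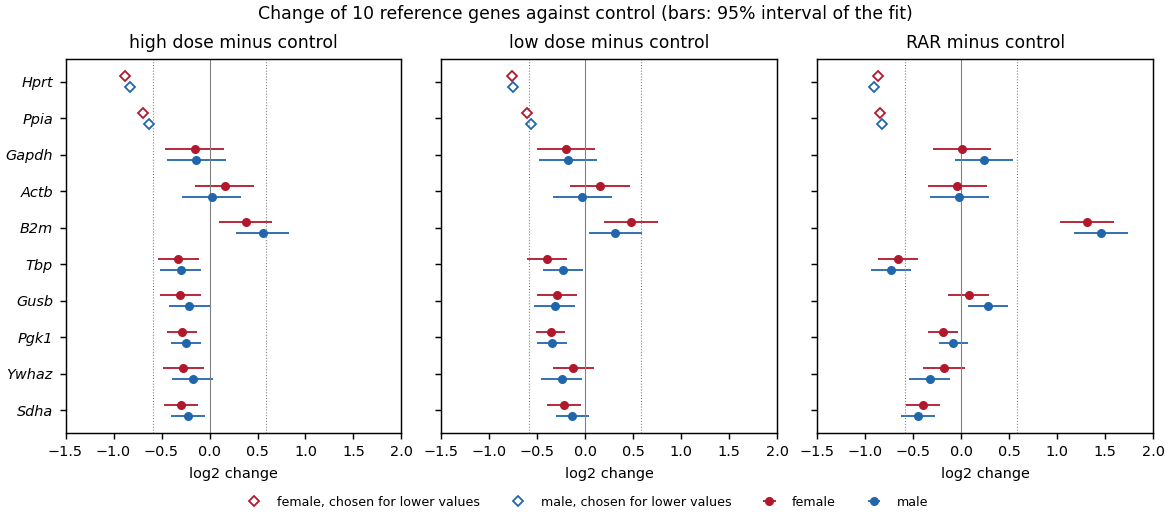
Change of each of the 10 genes against control of the same sex (horizontal axis, log2) at the high dose, the low dose and in RAR; filled circles with bars are estimates with their 95% interval from the fit, open diamonds are the genes chosen for their lower values, given without a test, and dotted lines mark 1.5-fold. In RAR the interval of B2m lay above 1.03 in both sexes and that of Tbp ended at −0.45 in females and −0.52 in males.

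The glycolytic enzyme Gapdh gave different answers through its 7 probes, which share 1 accession. The brightest probe had a log2 ratio of −1.32, −1.15 and −1.09 in female controls and −1.30, −1.13 and −1.09 in female RAR, and of −1.33, −1.24 and −1.11 in male controls against −1.27, −0.88 and −0.82 in male RAR. These groups overlapped, with changes of 0.011 and 0.24 (females, males, limma adjusted p = 0.974 and 0.237). The second brightest probe changed by 0.27 and 0.57 in RAR (adjusted p = 0.106 and 0.000975). The sixth and seventh changed by −0.66 and −0.53 in females (adjusted p = 4.23e-06 and 9.09e-05) and by −0.55 and −0.54 in males (adjusted p = 1.86e-05 and 6.63e-05), and only the sixth passed 1.5-fold, in females. The other 3 probes lay between these, at −0.20, −0.15 and −0.098 in females and −0.11, −0.046 and 0.011 in males, with adjusted p above 0.05 for each. The 2 dimmest probes were lower at both single doses as well, by −0.51 to −0.64 log2 units. All 7 probes were well above background on all 24 arrays. Genes such as Gapdh, Actb and Ppia are known for many near-identical processed copies in the genome, so which copies each probe reads is uncertain.

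**Figure D4:**
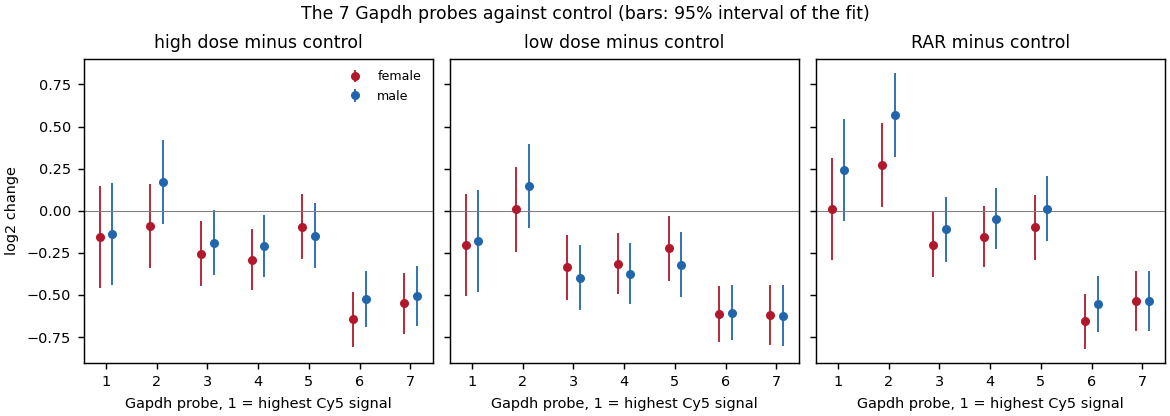
Log2 change against control (vertical axis) of the 7 Gapdh probes, ordered from the highest to the lowest Cy5 signal, at the high dose, the low dose and in RAR; circles are estimates and bars their 95% intervals. In RAR the probes ran from 0.27 to −0.66 in females and from 0.57 to −0.55 in males.

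Pgk1, another enzyme of the pathway, differed little in RAR and more at the single doses. Its log2 ratio was −2.31, −2.30 and −2.28 in female controls and −2.53, −2.47 and −2.46 in female RAR, and −2.35, −2.35 and −2.25 in male controls against −2.45, −2.40 and −2.34 in male RAR. The values did not overlap in females and overlapped in males, and the changes of −0.19 and −0.080 were within 1.14-fold (adjusted p = 0.062 and 0.477). At the single doses, given above, all 4 changes had an adjusted p under 0.05, while the brightest Gapdh probe had none. With the slide as a block only the low-dose changes of Pgk1 had an adjusted p under 0.05. Of 14 other glycolysis genes 1 was higher and 0 lower in female RAR and 2 were higher and 0 lower in male RAR, with median changes of 0.20 and 0.32. These counts lie near the 9.61% and 11.2% of all probes called higher there (females, males). Aldoa, the aldolase of this pathway, was higher in both sexes (0.77 and 1.04).

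Actb was the gene whose group means varied least, over a range of 0.196 log2 units. In female controls its log2 ratio was 0.81, 1.06 and 1.39, as wide a spread as across all the groups, and in female RAR it was 1.01, 1.05 and 1.07. In males it was 0.95, 1.05 and 1.37 in controls and 1.04, 1.05 and 1.23 in RAR. The changes in RAR were −0.039 and −0.017, with 95% intervals of −0.35 to 0.27 and −0.33 to 0.29, so the arrays leave room for changes of that size. The SD within groups (0.173) was the largest of the 10 genes and exceeded the SD over all 24 arrays (0.16). Of 12 other actin and actin-regulator genes 0 were called in RAR in either sex, beside 20.4% and 24.4% of all probes (females, males). Their medians were −0.056 and 0.031, from −0.40 to 0.42 in females and −0.41 to 0.50 in males.

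Sdha, of mitochondrial respiration, was lower in RAR on every array than in controls of the same sex, at 0.37, 0.39 and 0.48 against 0.78, 0.80 and 0.84 in females and at 0.24, 0.26 and 0.37 against 0.72, 0.74 and 0.74 in males. Its changes of −0.39 and −0.45 had adjusted p of 0.00136 and 0.000372 but were 1.31-fold and 1.36-fold. With the slide as a block in limma they were −0.30 and −0.39 (females, males, adjusted p = 0.119 and 0.015). The adjusted p of the female change thus did not pass there. With the Cy5 channel alone the changes were −0.62 and −0.61 (limma adjusted p = 0.000117 and 0.000121), large enough to be called in both sexes. Of 10 other genes of succinate dehydrogenase and the TCA cycle, 5 were lower in female RAR and 4 in male RAR and 0 were higher, with medians of −0.46 and −0.42. Of all probes 10.8% and 13.3% were called lower there (females, males). Idh3a, a subunit of isocitrate dehydrogenase, fell (−1.17 and −1.32), and the subunit Sdhd of the same complex as Sdha fell too (−0.63 and −0.87).

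Ywhaz, through its brightest probe, stood at 0.39, 0.45 and 0.50 in female controls and 0.15, 0.24 and 0.41 in female RAR, and at 0.42, 0.47 and 0.48 in male controls against 0.034, 0.13 and 0.23 in male RAR. The groups overlapped in females and not in males, with changes of −0.18 and −0.33 (adjusted p = 0.228 and 0.0186). The second brightest probe gave −0.18 and 0.15, with overlapping groups in females only and adjusted p of 0.236 and 0.325, and the third −0.47 and −0.50 (adjusted p = 0.00123 and 0.000528, less than 1.5-fold). Of 6 other 14-3-3 genes 0 were called in female RAR and 1 in male RAR, higher, beside 20.4% and 24.4% of all probes called.

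Gusb, the lysosomal enzyme, had its lowest group means at the single doses and its highest in RAR. Its log2 ratio in females was −2.27, −2.21 and −2.16 in controls, −2.58, −2.56 and −2.40 at the high dose, −2.59, −2.50 and −2.43 at the low dose and −2.30, −2.16 and −1.94 in RAR. In males it was −2.42, −2.19 and −2.19 in controls, −2.53, −2.52 and −2.39 at the high dose, −2.67, −2.59 and −2.50 at the low dose and −2.05, −1.97 and −1.95 in RAR. RAR overlapped with control in females and lay above it in males, with changes of 0.077 and 0.28 (adjusted p = 0.659 and 0.0422, both less than 1.5-fold). Single doses changed it by −0.30 and −0.21 (females, males) at the high dose and by −0.30 and −0.32 at the low dose, with adjusted p from 0.0517 to 0.188. Of 12 other lysosomal genes 3 were higher and 0 lower in female RAR and 5 were higher and 1 lower in male RAR, led by the cathepsin Ctsb (1.73 and 2.40). Of all probes 9.61% and 11.2% were called higher there, and 10.8% and 13.3% lower (females, males). In RAR the myeloid markers given with B2m were higher too, and their part was not tested. Of 12 myeloid markers 4 and 8 were higher at the high dose (females, males) and 5 and 5 at the low dose. In females 1 was lower at each dose. Of the 12 lysosomal genes 0 were called at either dose. Of all probes 7.84% and 10.5% were called at the high dose (females, males) and 8.74% and 6.63% at the low dose. For a list of 12 genes, 0 called lies near these shares.

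RAR was compared with each single dose, which the choice of Hprt and Ppia did not use. Of the 10 genes, 1 was called against the high dose in females and 1 in males, beside 7.25% and 5.84% of all probes. Against the low dose 1 was called in females and 2 in males, beside 4.12% and 9.76%, and the dimmer Tbp probe was called there in males (−0.71). B2m was higher than at the high dose by 0.94 and 0.90 (females, males, adjusted p = 0.000275 and 0.00028) and higher than at the low dose by 0.83 and 1.14 (adjusted p = 0.000879 and 1.26e-05). Gusb was higher than at the low dose in males by 0.60 (1.51-fold, adjusted p = 0.000496), with RAR and low-dose arrays apart; without male low dose replicate 1, male RAR replicate 1 or male RAR replicate 3 the difference was 0.55, 0.58 or 0.58, under 1.5-fold. In females it was 0.37 (adjusted p = 0.0335). Within slides, B2m in RAR exceeded the high dose by 0.82 in females and by 0.76 or more on each of the male slides, and the low dose by 1.05 and 1.42, and male Gusb exceeded the low dose by 0.64.

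Hprt in RAR differed from the high dose by 0.020 in females (95% interval −0.16 to 0.20) and by −0.075 in males (−0.26 to 0.11), and from the low dose by −0.095 (−0.28 to 0.086) and −0.15 (−0.33 to 0.032), with adjusted p from 0.294 to 0.93. For Ppia the differences were −0.15 and −0.19 from the high dose and −0.23 and −0.26 from the low dose, with adjusted p from 0.0685 to 0.321. None of these 8 differences passed the test (limma; 2 had an unadjusted p under 0.05, both for Ppia against the low dose), and each interval lies within a 1.5-fold change. Tbp was lower in RAR than at the high dose by −0.33 and −0.43 (adjusted p = 0.0363 and 0.00999), less than 1.5-fold.

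No difference between male and female thymocytes passed the test in these genes. limma called 0 of 10 in each of the 4 treatments, beside 0.207% of all probes in control, 0.296% at the high dose, 0.223% at the low dose and 0.438% in RAR, and 0 of the 40 differences had an unadjusted p under 0.05. The largest was 0.256 log2 units, and the 95% intervals reached at most 0.533 from 0. Over all 19 probes 2 of 76 differences had an unadjusted p under 0.05, the dimmer Tbp probe in RAR (−0.59, adjusted p = 0.289) and the second Ywhaz probe at the high dose (0.23, adjusted p = 0.507). Hprt and Pgk1 lie on the X chromosome, which females carry as a pair, one copy of which is largely silenced. Male minus female, Hprt differed by −0.12 in control, −0.069 at the high dose, −0.11 at the low dose and −0.16 in RAR, with intervals that all include 0. Ppia differed by −0.17, −0.11, −0.12 and −0.15 in that order, also with intervals that include 0. Both genes were thus lower in males in each treatment, and a sex difference over all treatments was not tested. Pgk1 differed by −0.020, 0.022, −0.0052 and 0.091 in the same order. The sex by treatment interaction had an adjusted p from 0.861 to 0.993, was called for 0 of 10 genes by limma and by the two-way test of the methods, and had an unadjusted p under 0.05 for 0 of 10 by either, through the brightest probe of each gene. The second Ywhaz probe had an unadjusted p of 0.0649 by limma and 0.0294 by the two-way test (adjusted p = 0.778 and 0.602). Over all probes limma called 0.00359%.

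Spread over the 24 arrays puts the genes in an order that is a description, since Hprt and Ppia were picked for their change. By SD of the log2 ratio the order was Ywhaz (0.144), Pgk1 (0.146), Actb (0.16), Sdha (0.171), Gapdh (0.196), Gusb (0.223), Tbp (0.273), Ppia (0.337), Hprt (0.382) and B2m (0.538). Among 18169 probes well above background on all arrays the median SD was 0.27, so Tbp stood at the 50.7th percentile, Ppia at the 64.2nd, Hprt at the 72.1st and B2m at the 86.5th, while Ywhaz stood at the 14th. Hprt and Ppia were among the more repeatable genes within groups, with SDs of 0.0785 and 0.0897. Their group means spanned 1.03 and 0.993 log2 units, 13.1 and 11.1 times that SD. The same ratio was 9.65 for B2m, 8.38 for Tbp, 6.95 for Pgk1, 6.93 for Sdha and 5.72 for Gusb. It was 3.1 for Ywhaz, 2.51 for Gapdh and 1.13 for Actb. As a mean of the SDs of the pairwise differences with the other 9 genes, the measure of the geNorm method, Pgk1 (0.262) and Ywhaz (0.273) were lowest and Hprt (0.371) and B2m (0.648) highest. The order of the genes with a lower SD depended on the scaling: Sdha had the lowest SD after normexp and loess and Actb with the Cy5 channel alone, where Hprt (0.464) and not B2m had the highest. With Cy5 alone Gapdh (0.137) also stood before Pgk1 (0.25). It depended on the probe too: the SD ran from 0.135 to 0.273 over the Gapdh probes, from 0.127 to 0.207 over those of Ywhaz and from 0.273 to 0.526 over those of Tbp.

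References are often combined, so the mean of each of the 45 pairs was compared with control in the 6 comparisons of treatment and sex. For 12 pairs the mean moved by 1.5-fold or more in at least 1 comparison. The place of Hprt with Ppia restates the choice of these genes for their change against control and is a description: the pair ranked 44th, at up to 0.86 log2 units, before only B2m with Gusb (0.87). Gapdh with Actb moved least (0.11 at most), followed by Actb with Ywhaz (0.17), Actb with Gusb (0.17) and Actb with Pgk1 (0.19). This order holds only for the brightest probe of each gene. The second Gapdh probe changed by 0.57 in male RAR and the sixth by −0.66 in female RAR. Pairs with these probes were not computed. Of the pairs without Hprt, Ppia and B2m, 1 passed 1.5-fold, Tbp with Sdha (0.59). Hprt with B2m stayed within 0.28, since opposite changes of its members cancel in the mean.

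**Figure D5:**
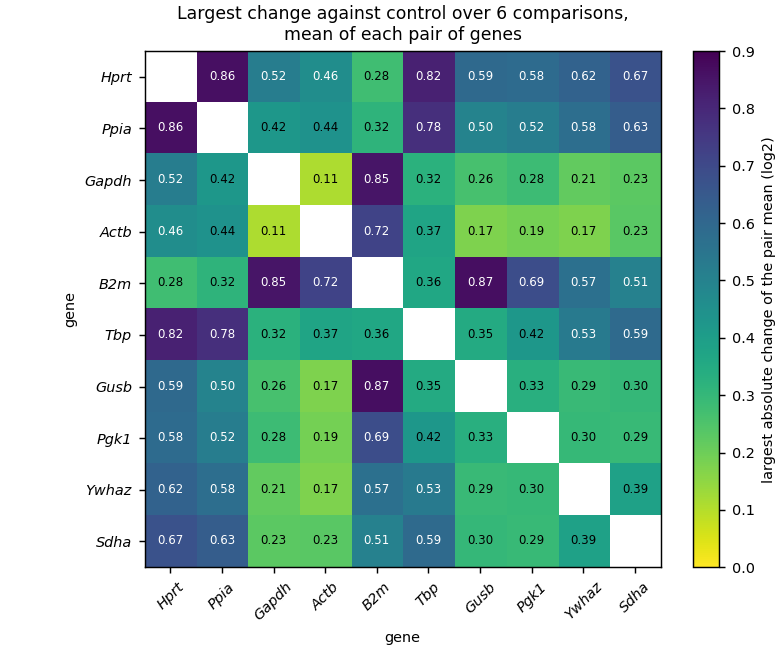
Largest absolute log2 change against control, over 6 comparisons of treatment and sex, of the mean of each pair of genes. Each gene is read through its brightest probe, and darker squares moved more. The pair of Hprt and Ppia reached 0.86, and the pairs of Actb with Gapdh, Ywhaz, Gusb or Pgk1 stayed at or under 0.19.

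Set against the mean of Hprt and Ppia, as the RT-PCR design would, each of the other 8 genes was higher than control in all 6 comparisons, 48 of 48 values. The pair was picked for its lower values on these arrays, and dividing by it raises every other gene, so this count is a description and supports nothing. In RAR the ratio to control was 1.76 and 1.80 for Actb (females, males), 1.82 and 2.15 for Gapdh, 1.91 and 2.21 for Gusb and 1.58 and 1.72 for Pgk1. B2m stood at 4.49 and 4.99 in place of 2.48 and 2.74. Tbp, which fell on its own scale, stood at 1.145 and 1.096. The single doses gave no common order against RAR: Gusb stood lower there (1.40 and 1.44 with the high dose, 1.31 and 1.27 with the low dose), and Tbp higher (1.38 and 1.35, then 1.22 and 1.35).

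The common reference RNA was the same on every array, yet its Cy3 signal for these genes was not constant. Scaled to the 75th percentile of its channel, Cy3 differed from control most for Pgk1 in female RAR (−0.47 log2 units), by −0.42 and −0.43 for B2m in RAR and by −0.28 and −0.25 for Hprt. Cy5 scaled the same way differed by −1.12 and −1.11 for Hprt and by 0.91 and 1.06 for B2m in RAR. The differences of Hprt and B2m had the same sign in the thymocyte channel alone, with other sizes. For Ppia the Cy3 signal was above control in every comparison, by 0.29 in male high dose and 0.29 in male low dose. Its Cy5 change there was −0.33 and −0.25, beside −0.63 and −0.57 as a ratio. In RAR the Cy5 change of Ppia was −0.67 and −0.57 (females, males), beside −0.85 and −0.82 as a ratio. For Pgk1 the Cy5 change was −0.64 and −0.48 beside −0.19 and −0.080 as a ratio. The part of the channels in the ratio of each gene was not tested.

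Genes that ran most like Hprt over the 24 arrays, among 12345 named probes well above background on all of them, were Pcna, the sliding clamp of DNA replication (Pearson r = 0.991), Ran, a GTPase of nuclear transport (0.986), and Nop58, a nucleolar protein (0.985). For Ppia they were Sqle, of sterol synthesis (0.985), Ola1 (0.982) and Snrpa1, of the spliceosome (0.98). These are descriptions over arrays that share the split by treatment.

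Relatives of Hprt and Ppia were counted on lists of their pathways, beside 9.61% and 11.2% of all probes called higher and 10.8% and 13.3% called lower in RAR (females, males). Of 10 other genes of purine salvage and nucleoside breakdown, 3 were higher and 5 lower in RAR than in control in females, and 3 and 5 in males, with medians of −0.32 and −0.82. Gda, which deaminates guanine, rose by 3.45 and 2.56, Ada, which deaminates adenosine, fell (−1.38 and −1.83), and the xanthine dehydrogenase gene Xdh rose by 0.96 and 1.51. Of 10 other cyclophilin and FK506-binding genes, 0 were higher and 6 lower in females and 1 higher and 5 lower in males, with medians of −0.71 and −0.62. Ppil1 (−1.30 and −1.19), the mitochondrial cyclophilin Ppif (−1.21 and −1.23) and Fkbp4 (−1.19 and −1.21) fell most.
Of 11 other genes of TFIID and general transcription, 1 was higher and 1 lower in females and 0 higher and 5 lower in males, with Taf5, a TFIID subunit, lower in both sexes (−1.09 and −1.53). The female count for this list, 2 of 11, lies near the 20.4% of all probes.

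A wider list of 22 other genes that serve as references gave 2 higher and 4 lower in female RAR and 1 higher and 4 lower in male RAR, with medians of −0.16 and −0.16. Tfrc, the transferrin receptor, fell (−1.16 and −1.43), and Cyc1, of respiratory complex III, fell too (−0.59 and −0.97). Of those not called, Hsp90ab1 differed by −0.12 and 0.040 and Rplp0 by −0.11 and −0.098. The share called, 6 of 22 and 5 of 22, stood beside the 20.4% and 24.4% of all probes.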

How the data were processed

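Thymocyte RNA (Cy5) and a common mouse reference RNA (Cy3) were measured on 24 Agilent 2-colour arrays without dye swaps, 3 mice in each of 8 groups taken from the labels. The authors deposited Feature Extraction files, whose processed intensity had been background-subtracted and dye-normalized by the software, together with a log2 Cy5/Cy3 table, which was the main input here. Recomputing the ratio from the deposited intensities gave the table's entry to within 0.01 (log2) for 99.77% of probes or more, depending on the array. The log10 ratios that the same files hold per the file headers were not used. Columns without a sample numbered 0. Control spots were left out, 183 to 368 spots per array were flagged as outliers, and 0 were saturated.

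All 55681 probes were fitted with limma 3.58.1 (R 4.3.3, data.table version 1.17.8) with a mean for each of the 8 groups and no covariate (16 residual degrees of freedom). Calls needed both a p under 0.05 after Benjamini-Hochberg adjustment across the 55681 probes and a 1.5-fold or larger difference, the thresholds the methods name. For the interaction, limma's F statistic was used and no fold was required. The fit was tested on simulated data. Probes were named through their accession and the RefSeq gene table (28026 named); promoter windows are from RefSeq, GRCm38.p6. Spread, pairs and correlations were computed in Python 3.11.15 with pandas 2.3.3 and drawn with matplotlib 3.10.9. The 10 genes and all gene lists were chosen with earlier results of these data known. Genes named from a list were at most the 3 called in the same direction in both sexes in RAR with the largest mean change; Hsp90ab1 and Rplp0 were chosen after their values were seen, and some genes of the lists are not reported here by name. Alternatives were the scanner intensities, normexp (offset 50) with loess, quantile scaling, median centring, Cy5 alone scaled to its 75th percentile, a filter on dim probes, the slide or the replicate number as a block, leaving out each array, dropping, per probe, the value in each group that lay farthest from its mean, the methods' ANOVA, and the other probes of a gene.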

Additional observations from a re-analysis of the deposited data

How the results depend on the processing

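The mean of Hprt and Ppia stayed below control in all 6 comparisons under all 33 alternatives. The values that follow are changes against control that moved from those given above by more than the SD within groups. After normexp and loess they were −0.68, −0.57 and −0.69 in females for high dose, low dose and RAR. In males they were −0.63, −0.57 and −0.67. With quantile scaling they were −0.91, −0.82 and −0.98 in females and −0.77 in male RAR. Median centring gave −0.61 in female low dose, and the Cy5 channel alone −0.53 in male low dose. Dropping each group's farthest value gave −0.62 and −0.56 in male high and low dose. Of the 8 genes listed for common use, 1 in each sex was called in RAR against control after normexp and loess. Beside it stood 6739 of all 55681 probes in females and 8272 in males. With the slide as a block 1 was called in each sex as well, beside 7143 and 10321 probes. With the Cy5 channel alone 4 were called in females, Pgk1 (−0.64) and Sdha (−0.62) among them, beside 24041 of the 55681 probes. With Cy5 alone 1 was called in females at each single dose, beside 7169 probes at the high dose and 6052 at the low dose. In male high dose 1 was called with the slide as a block (B2m, beside 3869 of the 55681 probes). There 1 was also called with the farthest value left out, and 0 to 1 when single arrays were left out. Male RAR against low dose gave 1 to 3 of 10 when single arrays were left out. With the farthest value left out, the interaction had an adjusted p under 0.05 for 7 of 10 genes, beside 60.4% of all probes; that step removes the spread the test is measured against.

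B2m was called in RAR against control and against each single dose under all 33 alternatives (0.91 to 1.55 in females and 1.06 to 1.65 in males against control). With Cy5 alone the median of all probes moved by 0.64 in female and 0.33 in male RAR against control; relative to it, B2m was at 0.27 and 0.73, Hprt at −1.77 and −1.44, and Actb at −0.58 and −0.26. Small changes turned sign. Gapdh in female RAR was −0.0087 with quantile scaling, −0.27 with Cy5 alone, −0.018 with the slide block, −0.058, −0.031 and −0.011 without single arrays (range −0.058 to 0.074), and −0.20, −0.15, −0.098, −0.66 and −0.53 by probes 3 to 7 in order of signal. In male RAR it was −0.15 with Cy5 alone and −0.11, −0.046, −0.55 and −0.54 by probes 3, 4, 6 and 7. Actb in female RAR was 0.21 after normexp and loess, 0.015 with median centring, 0.060 with Cy5 alone, 0.11 with the slide block, 0.11 without 1 array (range without single arrays −0.18 to 0.11) and 0.13 with the farthest value left out. In male RAR it was 0.28, 0.065 and 0.092 for normexp and loess, Cy5 alone and slide block, 0.11, 0.013 and 0.014 without single arrays (range −0.10 to 0.11), and 0.046 with the farthest value left out. Gusb in female RAR was −0.14 with quantile scaling, −0.19 with Cy5 alone, −0.019 without 1 array (range −0.019 to 0.16) and −0.049 with the farthest value left out, and the second Ywhaz probe was 0.15 in male RAR. The cause of these shifts was not tested.

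Replicate numbers did not pair the samples: arrays of one number had correlated deviations from −0.48 to 0.37 over 84 pairs, 18 of them over 0.1, and 8 of 24 arrays correlated best with their own number. With the replicate block the number of genes called changed in none of the comparisons (2 of 8 in RAR against control in each sex). The block leaves the estimates as they are, since each group holds each number 1 time; the adjusted p of B2m in RAR against control was 4.34e-06 in females and 1.03e-06 in males.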
